A study of Homo sapiens with 11 samples.

Results

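The 10 genes described here are regulators and a marker of the mesenchymal cell state: the transcription factors SNAI1, SNAI2, TWIST1, ZEB1, ZEB2 and PRRX1, the Hippo pathway effectors YAP1 and WWTR1, their DNA-binding partner TEAD1, and the intermediate filament gene VIM. They were taken by name, as every probe set whose annotated symbol, current or older, was one of the 10. That gave 26 probe sets for 10 of the 19775 named genes on the array. RNA came from IMR32, a human neuroblastoma cell line with amplified MYCN, and was measured on 11 one-colour arrays. Of these, 6 arrays were labelled shMYCN (lentivirus with the MYCN hairpin TRCN0000020696, with arrays A and B at each of 24, 48 and 72 hours). There were 3 control virus arrays (hairpin SHC002, 1 array at each of the same hours) and 2 arrays of cells without virus at 0 hours. All cells were of this 1 line, grown in DMEM with fetal calf serum. The submitters call the hairpin series a duplicate, and the labels do not say that A and B were separate cultures, so the p-values measure the spread between arrays, which may be technical.

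Neuroblastoma cells can take an adrenergic, neuron-like state or a mesenchymal one, and each state is held by its own transcription factors. Factors of the Snail, Twist and ZEB families bind E-box letters in DNA and are best known for repressing epithelial genes such as CDH1 during the epithelial-mesenchymal transition. YAP1 and WWTR1 bind no DNA themselves: they enter the nucleus when the Hippo kinases are inactive and switch on genes through TEAD factors.

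The targeted gene was checked first. No lower MYCN mRNA was detected on the arrays labelled shMYCN: of its 10 probe sets, 0 passed in limma in the mean over the 3 hours or at any single hour. Its brightest probe set differed by a log2 fold change of -0.020 ± 0.088 from control virus in the mean over the 3 hours (limma adjusted p = 0.924). The arrays are therefore called "labelled shMYCN" throughout, and every direction below rests on that label. Array medians ranged over signals of 14.9 to 16.7, and the pairs of a group correlated across probe sets at r = 0.986 to 0.994, where probe sets are not independent replicates. Of 8 measured neuroblastoma markers, 7 lay above the dim limit, the signal of 11.1 under which 40% of probe sets lay, with TH below it. Among 19775 genes, the brightest probe sets of 12670 outside the 10 also lay above that limit, so passing it does not show a cell type. Of 7 fibroblast markers, COL1A1, DCN, PDGFRA and PDGFRB lay above it. Of 4 measured Schwann and glial markers ERBB3 lay above it, of 5 leukocyte markers CD79A, and of 4 endothelial markers PECAM1. No marker was at 0 on all arrays.

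Of the 26 probe sets, 7 were lower on the arrays labelled shMYCN than on the control virus arrays in the mean over the 3 hours, and 0 were higher. They belonged to SNAI2, YAP1 (all 3 of its probe sets), VIM, SNAI1 and ZEB1, that is 5 of the 10 genes. By the brightest probe set of each gene, SNAI2, YAP1, VIM and SNAI1 passed and ZEB1 did not. On that measure 7.82% of all genes were lower and 10.3% higher. Over all 41091 probe sets tested, percent called was 14.7, with 6.89% lower and 7.83% higher, against 26.9% of the 26. That last share counts YAP1 3 times, and the genes were chosen with earlier results of these data known, so it is a description. Over all probe sets that split was 2833 lower and 3218 higher, and 3385 lower and 2341 higher under median scaling, where 7 of the 26 were again called. The median log2 fold change was -0.11 over the 26 probe sets and 0.0076 over all probe sets tested. Without the 72 hour control virus array, 2 of the 26 were called, SNAI2 and the brightest YAP1 probe set. TWIST1, ZEB2, WWTR1, TEAD1 and PRRX1 did not pass. Values are the authors' linear signals, and fold changes are differences of log2(signal + 16) ± standard error, which understates the folds of dim probe sets. In a bulk sample, fewer cells of a type and less RNA per cell cannot be told apart.

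**Figure D1:**
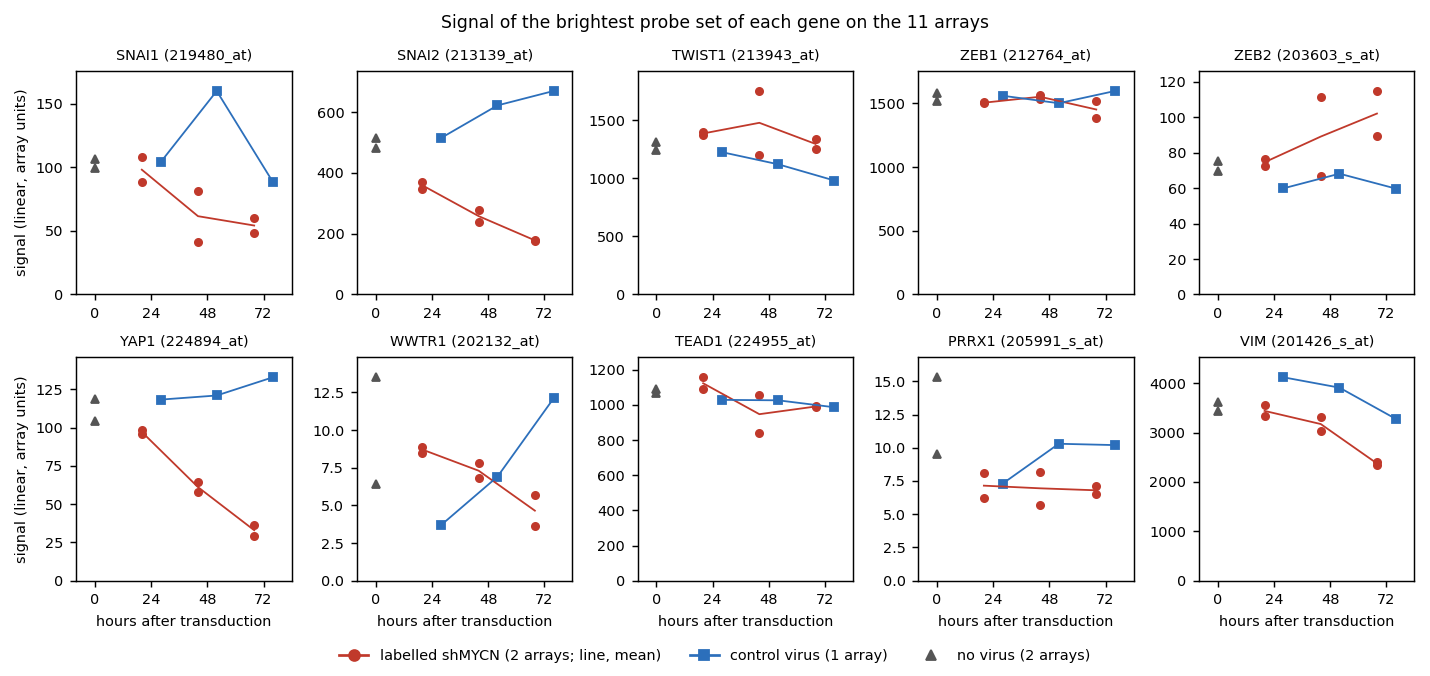
Linear signal (y axis) of the brightest probe set of each gene against hours after transduction (x axis), with the arrays labelled shMYCN and their mean in red, the single control virus arrays in blue and the arrays without virus in grey; points are set slightly apart sideways for legibility. SNAI2 fell to 175 and 181 at 72 hours labelled shMYCN, against 669 with control virus, while ZEB1 stayed between 1388 and 1597 on all 11 arrays.

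SNAI2 (Slug), a zinc-finger repressor of the Snail family that marks neural crest cells, had the largest difference of the 10 genes. Its single probe set, 213139_at, read 371 and 346 at 24 hours, 277 and 238 at 48 hours and 175 and 181 at 72 hours on the arrays labelled shMYCN. Control virus arrays read 515, 622 and 669 at these hours, and cells without virus 483 and 516. The 6 arrays labelled shMYCN lay below all 5 others, which held for 3.97% of all probe sets and for 3 of the 26 described here. The signal averaged 265 ± 82.4 on the arrays labelled shMYCN (SD, n = 6) and 602 ± 79.0 with control virus (SD, n = 3). The log2 fold change in the mean over the 3 hours was -1.18 ± 0.062 (95% interval -1.33 to -1.04, limma adjusted p = 2.91e-05), a 2.27-fold lower level.

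The SNAI2 difference grew with the hour. At 24 hours it was -0.50 ± 0.11, which did not pass (limma adjusted p = 0.204). At 48 hours it was -1.22 ± 0.11 (adjusted p = 0.00124) and at 72 hours -1.82 ± 0.11 (adjusted p = 8.66e-05), a 3.53-fold lower level. Within the arrays labelled shMYCN, SNAI2 fell by 0.95 on the log2 scale between 24 and 72 hours (adjusted p = 0.000493), and it was also lower than in cells without virus (log2 fold change -0.93 ± 0.072, adjusted p = 0.000228). The difference between the 72 and 24 hour differences was itself -1.32 ± 0.15 (adjusted p = 0.0115). That last call was lost without any 1 of the 4 arrays labelled shMYCN at 24 or 72 hours (adjusted p 0.0612 to 0.0752). The other SNAI2 calls held under all alternatives run.

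SNAI1 (Snail), the closest relative of SNAI2, was dimmer and less steady. On the arrays labelled shMYCN, probe set 219480_at gave 108 and 88.5 at 24 hours, 41.5 and 81.6 at 48 hours and 48.2 and 60.2 at 72 hours. With control virus it gave 104, 160.0 and 88.4, and without virus 99.1 and 106. The groups overlapped, although 5 of the 6 arrays labelled shMYCN lay below the control virus array of their hour. The mean comparison passed narrowly at -0.63 ± 0.16 on the log2 scale (limma adjusted p = 0.0355), and no single hour passed, 48 hours coming closest at -1.23 ± 0.28 (adjusted p = 0.0508). The single control virus array at 48 hours was the highest of all 11. Leaving out a control virus array also takes the arrays labelled shMYCN of its hour out of the mean comparison. The mean call was lost without the 48 hour control virus array, at -0.33 over 24 and 72 hours (adjusted p = 0.394). It was lost too without the 72 hour one, at -0.65 over 24 and 48 hours (adjusted p = 0.121). It was also lost without trend (adjusted p = 0.0516) and on leaving out either array without virus or any array labelled shMYCN at 24 or 72 hours (adjusted p 0.0631 to 0.0932).

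TWIST1, a basic helix-loop-helix factor of neural crest and mesoderm that MYCN-amplified neuroblastomas often express, did not pass in any comparison. Signals of 213943_at on the arrays labelled shMYCN were 1399.8 and 1373 at 24 hours, 1752 and 1204 at 48 hours and 1254 and 1339 at 72 hours. Control virus arrays had 1226, 1121 and 981, and cells without virus 1243 and 1313. Each of the 6 arrays labelled shMYCN lay above the control virus array of its hour, and the ranges of the groups overlapped. The log2 fold change of 0.31 ± 0.11 (95% interval 0.068 to 0.56) did not pass (limma adjusted p = 0.0941). It passed as higher in 5 of 20 alternatives. Among them were fits that left out the dimmest 40% of probe sets (adjusted p = 0.0299) or the dimmest 60% (adjusted p = 0.0263). TWIST1 also passed in the fit of the brightest probe set of each gene, which left out the dimmest 40% as well (adjusted p = 0.0244). It also passed without array A labelled shMYCN at 48 hours (0.22, adjusted p = 0.0185) and without array B of that hour (0.40, adjusted p = 0.00162).

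ZEB1, a zinc-finger and homeodomain repressor, passed in 1 of its 4 probe sets. The signal of its brightest probe set, 212764_at, ran from 1388 to 1568 with a median of 1511 on the arrays labelled shMYCN, against 1501 to 1597 with control virus and 1515 and 1581 without virus. These ranges overlapped in part, the highest control virus array lying above every array labelled shMYCN, and the log2 fold change was -0.047 ± 0.053 with a 95% interval of -0.17 to 0.074 (limma adjusted p = 0.644). A second ZEB1 probe set, 212758_s_at, gave 427, 358, 400.4, 367, 387 and 360.0 on the arrays labelled shMYCN (A and B at 24, 48 and 72 hours), against 462, 523 and 443 with control virus and 436 and 406 without virus. All 6 of these arrays lay below the 3 control virus arrays, and the log2 fold change was -0.30 ± 0.069 (adjusted p = 0.023). Between the arrays labelled shMYCN and all control virus arrays there was no overlap for 5 of the 26 probe sets (SNAI2, the 3 of YAP1 and this one), against 5.6% of all probe sets. None of the 26 had all 6 above the 3 control virus arrays, as 5.79% of all probe sets did. The 212758_s_at call was lost without the 48 hour control virus array (-0.23, adjusted p = 0.141), the 72 hour one (adjusted p = 0.0731) or array B labelled shMYCN at 72 hours (adjusted p = 0.0646), and without trend (adjusted p = 0.0508). The other ZEB1 probe sets, 210875_s_at at -0.082 ± 0.092 and 239952_at at -0.24 ± 0.12, did not pass. All 4 ZEB1 values had the same sign, and differences between the probe sets were not tested.

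ZEB2, which takes part in sympathetic neuron and neural crest development, was higher in value but did not pass. Its brightest probe set, 203603_s_at, gave 72.8 and 76.5 at 24 hours, 111 and 67.0 at 48 hours and 89.4 and 115 at 72 hours on the arrays labelled shMYCN. With control virus it gave 59.9, 68.2 and 59.8, and without virus 69.6 and 75.6. At each hour at least 1 array labelled shMYCN lay above its control, and 5 of 6 did in all. The log2 fold change of 0.39 ± 0.14 had a 95% interval of 0.068 to 0.72 (limma adjusted p = 0.110). It passed with the dimmest 40% of probe sets left out (adjusted p = 0.0396) and with the dimmest 60% left out (adjusted p = 0.0357). The fit of the brightest probe set of each gene, which left out the dimmest 40% as well, also gave a pass (adjusted p = 0.0342). Without array B labelled shMYCN at 48 hours the log2 fold change was 0.49. In all, 4 of 20 alternatives called this probe set higher, that fit among them. A second probe set above the dim limit, 228333_at, gave 0.096 ± 0.10, and the 3 others lay below that limit on average, at signals of 0.5 to 9.1.

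**Figure D2:**
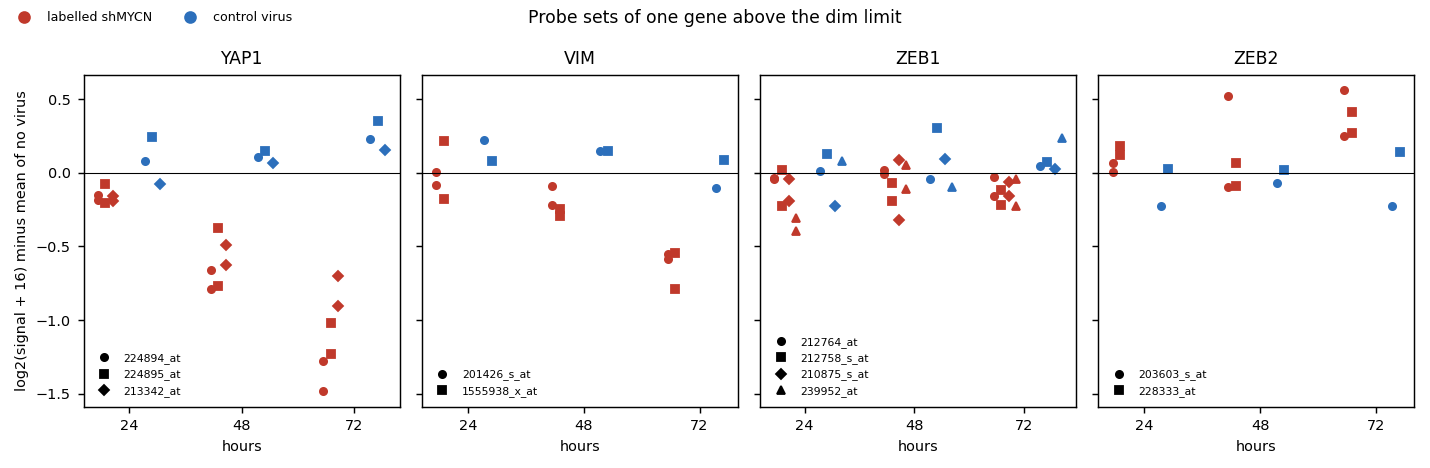
Each array's log2(signal + 16) minus the mean of the 2 arrays without virus (y axis) by hour (x axis) for the probe sets of YAP1, VIM, ZEB1 and ZEB2 above the dim limit, with red for arrays labelled shMYCN, blue for control virus and a marker shape for each probe set; points are set apart sideways for legibility. The 3 YAP1 probe sets lie well below 0 on the arrays labelled shMYCN at 72 hours, while those of ZEB1 stay near 0.

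YAP1, the transcriptional coactivator that the Hippo kinases hold in the cytoplasm, fell in all 3 of its probe sets. The brightest, 224894_at, gave 98.5 and 95.9 at 24 hours, 64.5 and 57.8 at 48 hours and 29.5 and 36.5 at 72 hours on the arrays labelled shMYCN. With control virus it gave 118, 121 and 133, and without virus 104 and 119. Every array labelled shMYCN lay below all 5 others, and the signal averaged 63.8 ± 29.0 (SD, n = 6) against 124 ± 7.77 with control virus (SD, n = 3). The mean log2 fold change was -0.89 ± 0.083 (95% interval -1.09 to -0.70, limma adjusted p = 0.000373), which is 1.86-fold lower. Without the 72 hour control virus array, and so over 24 and 48 hours, it was -0.54 (adjusted p = 0.0287).

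The other YAP1 probe sets moved the same way. Probe set 224895_at gave 50.5, 57.0, 29.0, 43.2, 16.8 and 21.9 on the arrays labelled shMYCN in the same order, against 74.8, 69.1 and 81.9 with control virus and 55.9 and 66.1 without virus. Its log2 fold change was -0.86 ± 0.12 (limma adjusted p = 0.00269), and its highest array labelled shMYCN overlapped the lower array without virus. Probe set 213342_at gave 19.7, 20.4, 13.0, 10.4, 5.7 and 9.0 on the arrays labelled shMYCN, against 22.6, 26.6 and 29.3 with control virus and 22.7 and 26.8 without virus. Its 6 arrays lay below all 5 others, and its log2 fold change was -0.56 ± 0.11 (adjusted p = 0.011). Without the 72 hour control virus array both calls were lost, at -0.55 (adjusted p = 0.0904) for 224895_at and -0.36 (adjusted p = 0.197) for 213342_at. These probe sets read the same mRNA, so they are not independent measurements.

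The YAP1 difference also grew with the hour. The brightest probe set differed from control virus by -0.25 ± 0.14 at 24 hours (limma adjusted p = 0.677), by -0.83 ± 0.14 at 48 hours (adjusted p = 0.0202) and by -1.61 ± 0.14 at 72 hours (adjusted p = 0.000458), a 3.05-fold lower level. The difference between the 72 and 24 hour differences was -1.36 ± 0.20 (adjusted p = 0.0246). It was lost without any 1 array at 24 or 72 hours labelled shMYCN, without either array of the cells without virus, and without trend, at adjusted p-values of 0.0517 to 0.108. The 48 hour call was lost without either 24 hour array labelled shMYCN (adjusted p 0.0531 and 0.0535). Within the arrays labelled shMYCN, the level fell by 1.21 between 24 and 72 hours (adjusted p = 0.000591). At 72 hours the other probe sets also passed, at -1.47 ± 0.21 for 224895_at and -0.96 ± 0.19 for 213342_at. The 72 hour call of 213342_at was lost without array A labelled shMYCN at 72 hours (adjusted p = 0.0722).

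The promoter of YAP1 is shown because its mRNA fell in every probe set and because it holds letters read by factors named here. The promoter of VIM, another gene that fell, is set beside it. Each line gives the 250 bases before the RefSeq start (GRCh38.p14, plus strand, chr11:102110197-102110446 for YAP1 and chr10:17227991-17228240 for VIM). Capitals mark matches on either strand to CANNTG, the general E-box, which includes CACGTG and CAGGTG, or to GGAATG, the letters that TEAD factors bind.
YAP1: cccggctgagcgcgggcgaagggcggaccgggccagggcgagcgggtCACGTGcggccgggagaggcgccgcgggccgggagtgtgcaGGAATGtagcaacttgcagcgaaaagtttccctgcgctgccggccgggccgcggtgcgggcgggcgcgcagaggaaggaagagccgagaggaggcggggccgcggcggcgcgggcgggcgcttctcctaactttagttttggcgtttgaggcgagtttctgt
VIM: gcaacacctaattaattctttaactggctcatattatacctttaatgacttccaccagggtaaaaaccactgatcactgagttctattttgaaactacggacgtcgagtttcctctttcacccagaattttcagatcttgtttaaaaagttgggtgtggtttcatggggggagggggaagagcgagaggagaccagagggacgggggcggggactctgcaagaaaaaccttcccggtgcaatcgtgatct
The YAP1 window held 1 CACGTG, the E-box form that MYC proteins bind, beginning 203 bases before the start. It also held 1 GGAATG, beginning 162 bases before it. The VIM window held none of the letters searched. Of 35116 RefSeq windows of the same length, 6.34% held CACGTG, 17.5% CAGGTG, 61.8% CANNTG and 11.9% GGAATG. Windows were matched for 6 of the 10 genes (PRRX1, ZEB2, WWTR1, VIM, ZEB1 and YAP1, 13 windows in all), and CAGGTG, the form that ZEB and Snail factors favour, stood in 2 of the 7 ZEB1 windows. A match of letters is a description and does not show binding.

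WWTR1 (TAZ), the paralogue of YAP1, gave no usable level. Its 3 probe sets all lay below the dim limit on average. The brightest, 202132_at, gave 3.6 to 8.9 with a median of 7.3 on the arrays labelled shMYCN, against 3.7, 6.9 and 12.1 with control virus and 6.4 and 13.5 without virus. Its log2 fold change was -0.032 ± 0.11 (95% interval -0.28 to 0.21, limma adjusted p = 0.897), and a difference was not detectable at these signals.

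TEAD1, the DNA-binding partner of both coactivators, was bright and differed little. Probe set 224955_at ran from 839 to 1157 with a median of 1024 on the arrays labelled shMYCN, against 986 to 1028 with control virus and 1068 and 1088 without virus. The control virus range lay inside that of the arrays labelled shMYCN. Its log2 fold change was 0.0025 ± 0.074 with a 95% interval of -0.17 to 0.17 (limma adjusted p = 0.990), and its sign turned under some settings. The dimmer probe sets gave -0.10 ± 0.15 (214600_at) and 0.036 ± 0.13 (1553322_s_at), neither of which passed.

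PRRX1, a homeodomain factor that can drive neuroblastoma cells into the mesenchymal state, was dim in all 3 probe sets, at signals of 0.2 to 15.3 over the 11 arrays. The brightest, 205991_s_at, gave 8.1, 6.2, 8.2, 5.7, 7.1 and 6.5 on the arrays labelled shMYCN, against 7.3, 10.3 and 10.2 with control virus and 9.5 and 15.3 without virus. The groups overlapped, and its log2 fold change was -0.14 ± 0.10 (limma adjusted p = 0.454). Another, 226695_at, was called lower at 48 hours (-0.66 ± 0.11, adjusted p = 0.0182). There it read 0.7 and 1.5 on the arrays labelled shMYCN, against 11 on the single control virus array, and between 0.6 and 2.7 on the 8 remaining arrays. All these signals lay below the dim limit, the call rests on that 1 control array, and it was lost with an offset of 1 in place of 16 (adjusted p = 0.0631).

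VIM, the intermediate filament protein of mesenchymal cells, was lower in its bright probe set. Probe set 201426_s_at gave 3551 and 3328 at 24 hours, 3038 and 3309 at 48 hours and 2404 and 2348 at 72 hours on the arrays labelled shMYCN. With control virus it gave 4120.4, 3910.2 and 3279, and without virus 3622 and 3441. Each array labelled shMYCN lay below the control virus array of its hour, yet the groups overlapped because the 72 hour control virus array was lower than the other controls. The log2 fold change was -0.34 ± 0.06 (limma adjusted p = 0.00811), a 1.27-fold lower level. Without the 72 hour control virus array, and so over 24 and 48 hours, it was -0.28 (adjusted p = 0.0879).

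At 72 hours VIM was lower by -0.46 ± 0.11 (limma adjusted p = 0.0269), a call lost without either array of the cells without virus or either 72 hour array labelled shMYCN (adjusted p 0.0676 to 0.0901). Within the arrays labelled shMYCN it fell by 0.53 between 24 and 72 hours (adjusted p = 0.00591), lost without array A at 24 hours (adjusted p = 0.0577). The control virus arrays also read lower at 72 than at 24 hours, and the difference of differences was -0.20 ± 0.15 (adjusted p = 0.596). Against cells without virus the log2 fold change was -0.25 ± 0.072 (adjusted p = 0.0622). A second, dim probe set, 1555938_x_at, gave 16.4, 26.6, 14.9, 13.9, 9.2 and 5.2 on the arrays labelled shMYCN, against 22.7, 24.7 and 22.9 with control virus and 22.2 and 19.2 without virus. It did not pass in the mean (-0.41 ± 0.13, adjusted p = 0.0721) and fell by 0.68 within the arrays labelled shMYCN between 24 and 72 hours (adjusted p = 0.0426), a call that held under 9 of 18 alternatives.

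**Figure D3:**
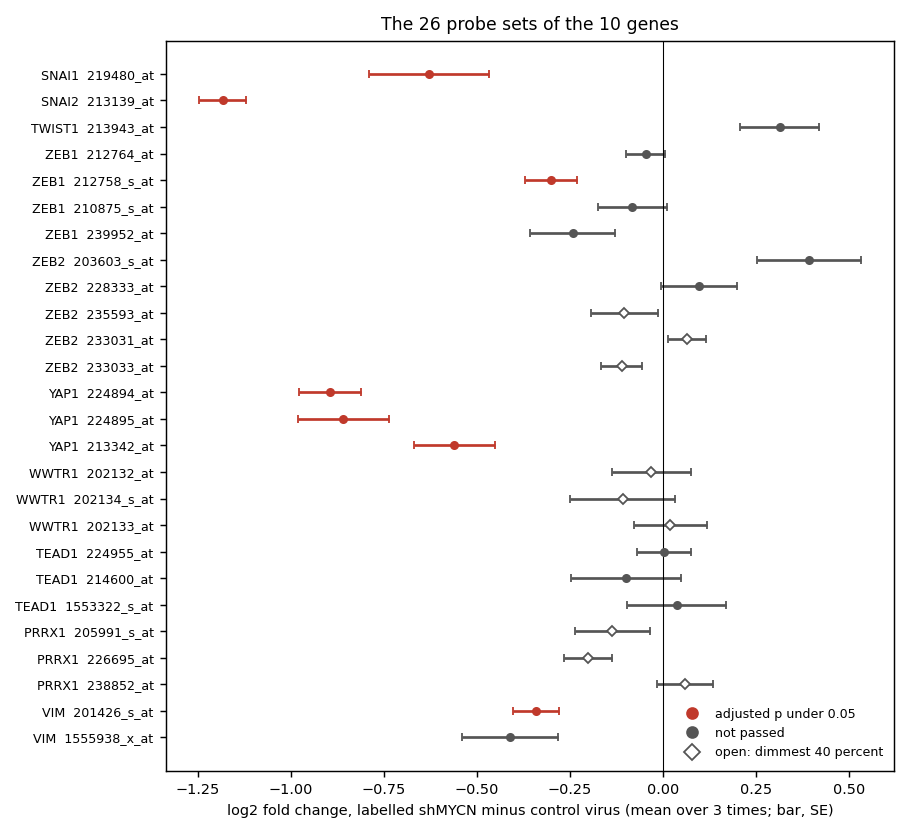
Log2 fold change of the arrays labelled shMYCN against control virus, mean over the 3 hours (x axis), for all 26 probe sets, with the standard error of the limma fit as bars, red for those past the threshold and open diamonds for those below the dim limit. The 7 red points all lie below 0, led by SNAI2 at -1.18, while TWIST1 (0.31) and ZEB2 203603_s_at (0.39) stand to the right and did not pass.

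By hour, the counts of the 26 probe sets were as follows. At 24 hours limma called 0 (percent called over all probe sets 0.0487), with 4 of the 26 (15.4%) at an unadjusted p under 0.05, against 9.39% of all probe sets. At 48 hours it called 3, all lower, belonging to SNAI2, YAP1 and PRRX1 (4.33 percent called in all, 2.36% lower and 1.97% higher). At 72 hours it called 5, all lower, belonging to SNAI2, VIM and all 3 YAP1 probe sets (12.5 percent called, 6.18% lower and 6.32% higher). Leaving out array A at 72 hours labelled shMYCN gave 3 at 72 hours, and leaving out either 48 hour array labelled shMYCN gave 8. At 48 hours the count was 6 without array B of that hour. The hours share no arrays, and a probe set called at 72 and not at 24 hours is not thereby shown to differ between them.

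Within the arrays labelled shMYCN, 6 of the 26 were lower at 72 than at 24 hours (SNAI2, 3 of YAP1 and both of VIM), and 0 were higher, where 13.7 percent were called over all probe sets (6.38% lower). The count was 3 without array A at 72 hours or array B at 24 hours, and the calls of YAP1 held in 20 of 20 alternatives for 224894_at, 17 of 19 for 224895_at and 12 of 18 for 213342_at. The difference of differences was called for 2 (SNAI2 and YAP1), at 1.64 percent called in all (0.969% lower), and for 0 without any 1 of the 4 arrays labelled shMYCN at these hours. Control virus against no virus gave 0 of the 26 and 0 percent called over all probe sets, with 1 of the 26 (SNAI2, 0.25 ± 0.080, limma adjusted p = 0.798) at an unadjusted p under 0.05, against 5.68% of all probe sets. The arrays labelled shMYCN against no virus gave 4, all lower (10.8 percent called, 5.13% lower and 5.62% higher), which were SNAI2 and the 3 probe sets of YAP1 (-0.76 ± 0.10, -0.61 ± 0.14 and -0.51 ± 0.13). This comparison and the one against control virus share the arrays labelled shMYCN. The count of 4 was 2 without array 1 of the cells without virus, without either 24 hour array labelled shMYCN or without array A at 72 hours, and 1 without array 2 of the cells without virus. In that last case 224894_at gave -0.68 (adjusted p = 0.0502).

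**Figure D4:**
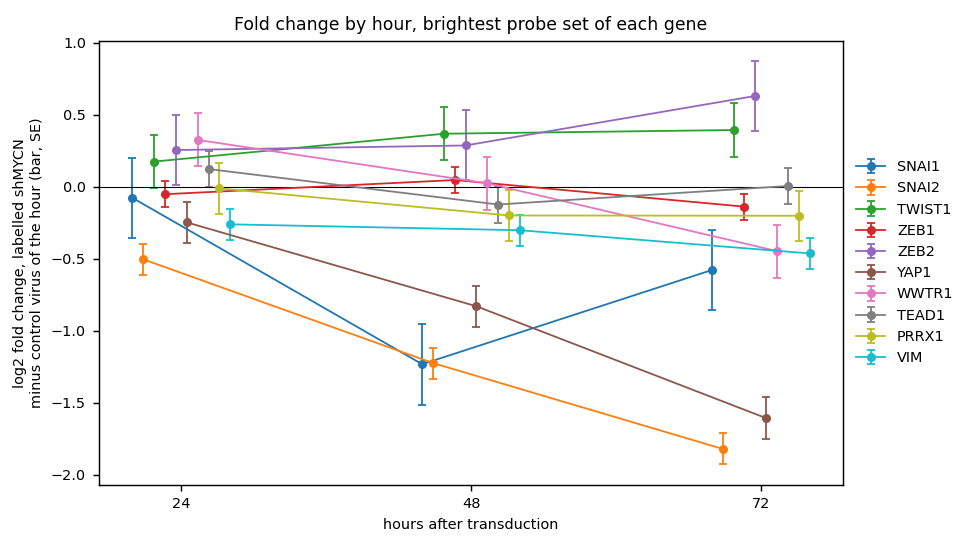
Log2 fold change against the control virus array of the same hour (y axis) at 24, 48 and 72 hours (x axis; points set apart sideways) for the brightest probe set of each gene, with the standard error of the limma fit as bars. SNAI2 ran -0.50, -1.22 and -1.82 and YAP1 -0.25, -0.83 and -1.61, while TEAD1 gave 0.12, -0.12 and 0.0062.

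The Hippo pathway around YAP1 changed in both directions. Of 20 measured kinases and regulators, 3 were lower and 4 higher in the mean over the 3 hours, taking the brightest probe set of each gene, for which 7.82% of all genes were lower and 10.3% higher (18.2 percent called), shares that apply to every other list as well. MOB1A, an activator of the LATS kinases, averaged 231 ± 94.2 on the arrays labelled shMYCN (SD, n = 6) and 513 ± 42.4 with control virus (SD, n = 3), which is -1.18 ± 0.046 on the log2 scale (limma adjusted p = 1.16e-05). AJUBA, a LIM protein that restrains LATS, was at -0.82 ± 0.094 (adjusted p = 0.00101), with -0.16 at 24, -0.69 at 48 and -1.60 at 72 hours. DCHS1, a giant cadherin upstream of the kinases, rose by 0.56 ± 0.062 (adjusted p = 0.000807), and VGLL4, which competes with YAP1 for TEAD factors, by 0.37 ± 0.055 (adjusted p = 0.00341). The median log2 fold change of the list was 0.043, against 0.013 over all genes.

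Other TEAD and VGLL factors gave 1 lower and 0 higher of 6 measured, with a median of -0.035. TEAD4 was the lower one, at -0.25 ± 0.065 (limma adjusted p = 0.0362). TEAD3 (0.19 ± 0.087), VGLL2 (0.30 ± 0.15) and VGLL1 (-0.12 ± 0.086) did not pass, and VGLL1 lay at signals of 0.8 to 8.6 on the arrays labelled shMYCN.

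Among 17 measured genes known as targets of YAP1 and WWTR1, 1 was lower and 3 were higher, with a median of 0.094, where 18.2% of all genes were called. Of the 17, only 8 lay above the dim limit, and low signals limit what can be detected in the rest. CCN1, which encodes a secreted matrix protein, averaged 88.6 ± 23.3 on the arrays labelled shMYCN (SD, n = 6) and 129 ± 8.52 with control virus (SD, n = 3), or -0.50 ± 0.088 on the log2 scale (limma adjusted p = 0.00705). It reached -0.81 at 72 hours (adjusted p = 0.011). TGFB2, a TGF-beta ligand, rose by 0.72 ± 0.085 (adjusted p = 0.00114) and FJX1, a secreted glycoprotein, by 0.25 ± 0.045 (adjusted p = 0.00762). CCN2, the most used YAP1 target and named here after its values were seen, lay at signals of 0.2 to 6.4 on the arrays labelled shMYCN and 0.4 to 7.4 with control virus.

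The other factors of the epithelial-mesenchymal transition gave 0 lower and 1 higher of 12 measured, with a median of 0.016 (-0.01 under median scaling). Of the 12, 6 lay above the dim limit. TCF3 (E2A), the helix-loop-helix partner of TWIST1, was the higher one, at 0.40 ± 0.072 (limma adjusted p = 0.00777). SOX4 (0.16 ± 0.054), FOXC2 (-0.16 ± 0.089) and KLF8 (-0.12 ± 0.079) did not pass. Epithelial genes gave 0 lower and 1 higher of 15, and 5 of the 15 lay above the dim limit. The higher one was OCLN, a tight junction protein, at 0.28 ± 0.06 (adjusted p = 0.0233), and 0 of 15 passed under median scaling. CDH1, the classical target of SNAI, ZEB and TWIST factors and named here after its values were seen, lay at signals of 0.4 to 5.7 on the arrays labelled shMYCN and 1.1 to 3.0 with control virus, below the dim limit.

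Mesenchymal core factors of neuroblastoma gave 2 lower and 7 higher of 20 measured, with a median of 0.17. The largest change was in ID1, an inhibitor of helix-loop-helix factors, at -1.55 ± 0.10 (limma adjusted p = 5.88e-05). Its signals were 230.0 to 1256 on the arrays labelled shMYCN and 1047 to 1898 with control virus, ranges that overlapped. CREG1, a secreted glycoprotein, was at -0.63 ± 0.11 (adjusted p = 0.00592). ELK4, an ETS factor, rose by 0.30 ± 0.056 (adjusted p = 0.00876) and ZNF217, a zinc-finger factor, by 0.28 ± 0.06 (adjusted p = 0.0146). Of the 9 called genes of this list 7 were higher, against 2045 of the 3592 called over all genes.

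TGF-beta pathway genes gave 4 lower and 3 higher of 15, with a median of -0.16. The receptors split: ACVR1 rose by 0.53 ± 0.059 (limma adjusted p = 0.000921), whereas BMPR2 was at -0.41 ± 0.051 (adjusted p = 0.00143) and TGFBR1 at -0.34 ± 0.06 (adjusted p = 0.00733). SKI, which restrains SMAD proteins, rose by 0.52 ± 0.084 (adjusted p = 0.00482). Of 19 genes of the mesenchymal cytoskeleton and of adhesion, 3 were lower and 2 higher, with a median of -0.074. CDH11, a mesenchymal cadherin, was at -0.58 ± 0.056 (adjusted p = 0.000425), ANXA2 at -0.30 ± 0.049 (adjusted p = 0.00481) and the matrix protein FN1 at -0.28 ± 0.058 (adjusted p = 0.015), while TPM1, a tropomyosin, rose by 0.39 ± 0.056 (adjusted p = 0.00275). ANXA2, a membrane-binding annexin, was at 0.059 at 24 hours, -0.091 at 48 hours and -0.88 at 72 hours.

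Adrenergic identity factors, which define the opposite cell state, gave 3 lower and 1 higher of 14, with a median of -0.027 (0.064 under quantile normalization). EYA1 was at -0.44 ± 0.056 (limma adjusted p = 0.00158), TBX2 at -0.37 ± 0.052 (adjusted p = 0.0026) and HAND1 at -0.37 ± 0.08 (adjusted p = 0.0173), all developmental transcription regulators. SOX11, a neuronal SOX factor, rose by 0.29 ± 0.065 (adjusted p = 0.0194). Leaving out single arrays moved these counts. The shares of all genes called in those fits are not given here, so the counts cannot be set against them. Without a control virus array the mean covers the remaining hours only. Without the 72 hour control virus array, 2 Hippo regulators, 1 target gene, 1 mesenchymal core factor, 2 TGF-beta pathway genes, 1 cytoskeleton and adhesion gene and 1 adrenergic factor were called, and 0 in the 3 remaining lists. Without the 48 hour control virus array, 4 mesenchymal core factors, 4 TGF-beta pathway genes, 3 cytoskeleton and adhesion genes, 2 adrenergic factors, 2 epithelial genes and 0 other TEAD and VGLL factors were called. Counts also moved without other arrays. Without array A labelled shMYCN at 24 hours, 0 TEAD and VGLL factors, 4 core factors, 4 TGF-beta genes and 0 epithelial genes were called. Without array A at 72 hours 0 TEAD and VGLL factors, 4 TGF-beta genes and 0 epithelial genes were called. Without array B at 72 hours 0 TEAD and VGLL factors, 5 core factors and 4 TGF-beta genes were called. Leaving out either array without virus gave 0 TEAD and VGLL factors and 4 TGF-beta genes, array B at 24 hours gave 0 TEAD and VGLL factors, and the 24 hour control virus array gave 0 epithelial genes.

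**Figure D5:**
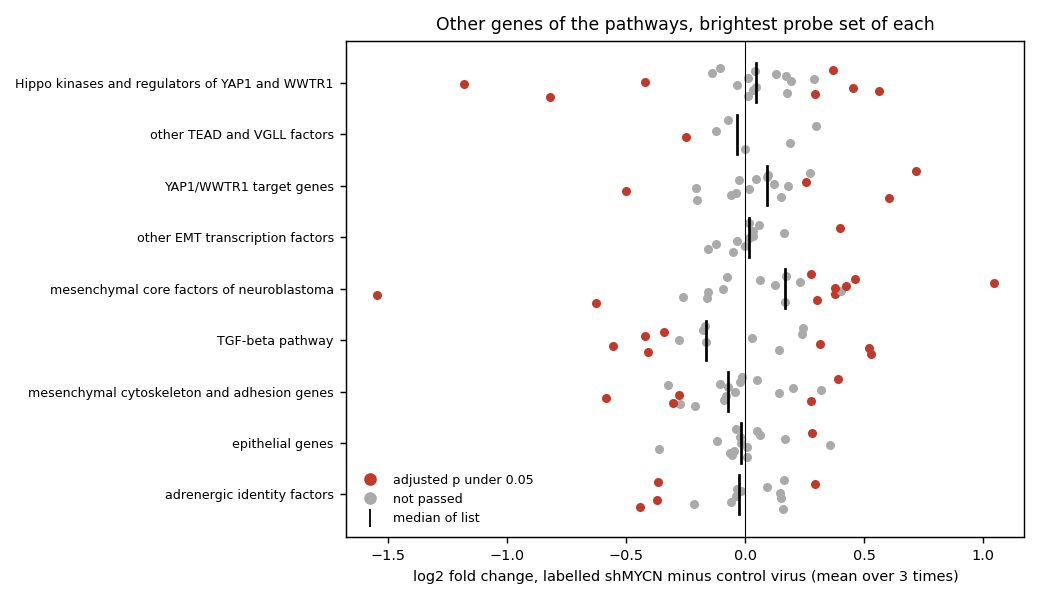
Log2 fold change of the arrays labelled shMYCN against control virus, mean over the 3 hours (x axis), for the brightest probe set of each measured gene in the 9 lists, with red points for genes past the threshold, grey for the rest and a black bar at each list's median. Hippo regulators and mesenchymal core factors hold both lower and higher genes, from MOB1A at -1.18 and ID1 at -1.55 to MEF2D at 1.04.

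Some marker genes differed beside these results. The summed signal of the 7 fibroblast markers was 1367 to 1779 on the arrays labelled shMYCN, 1162 to 1222 with control virus and 1186 to 1224 without virus. COL1A1 gave 407 to 659 on the arrays labelled shMYCN, 292 to 354 with control virus and 309 to 317 without virus (log2 fold change 0.67, limma adjusted p = 0.00526). The 6 other fibroblast markers did not pass, among them PDGFRA (0.17, adjusted p = 0.232), PDGFRB (0.35, adjusted p = 0.0945) and DCN (0.099, adjusted p = 0.615). COL1A2 had the opposite sign (-0.33, adjusted p = 0.152) and lay below the dim limit, as did COL3A1 and LUM. The sum of the 8 neuroblastoma markers was 5582 to 7158 on the arrays labelled shMYCN, 5281 to 5827 with control virus and 5397 to 5704 without virus. GATA3 (2873 to 3414 on the arrays labelled shMYCN) and CHGA (1398 to 1733) made up most of it. Of the 8 markers, 5 were higher and 1 lower, where 10.3% of all genes were higher and 7.82% lower by their brightest probe set. TH, among the 5 higher, lay below the dim limit. STMN2 gave 119 to 1106 on the arrays labelled shMYCN and 67.4 to 81.0 with control virus (log2 fold change 2.05, adjusted p = 7.81e-06). DBH, the lower one, gave 85.9 to 199 on the arrays labelled shMYCN and 171 to 217 with control virus (-0.47, adjusted p = 0.00525). GATA3 (-0.060, adjusted p = 0.650) and HAND2 (0.15, adjusted p = 0.546) did not pass. The sum of the 5 leukocyte markers was 26.3 to 39.9 on the arrays labelled shMYCN, 27.8 to 33.6 with control virus and 30.1 to 36.5 without virus. The 4 endothelial markers summed to 29.4 to 37.5 on the arrays labelled shMYCN, 28.7 to 43.6 with control virus and 37.9 to 38.9 without virus. The 4 Schwann and glial markers summed to 11.4 to 41.4 on the arrays labelled shMYCN, 7.9 to 26.1 with control virus and 19.1 to 21.9 without virus. The part of these cell types in the results was not tested.

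The genes whose pattern over the 11 arrays lay closest to each called gene were named by the correlation of log2 signals, as a description over arrays that share their hours and labels. For SNAI2 they were SESTD1 (r = 0.992), ZNRF3 (r = 0.985) and AP1S2 (r = 0.983) among 12670 candidates. For YAP1 they were STMN1 (r = 0.998), CEBPB (r = 0.995) and COL4A1 (r = 0.987). For VIM they were FTL (r = 0.987), PFN1 (r = 0.974) and DCTPP1 (r = 0.971). SNAI1 lay closest to POLR2D (r = 0.977), ATG13 (r = 0.967) and BCS1L (r = 0.965). The brightest ZEB1 probe set, which itself did not pass, lay closest to WDR93 (r = 0.914), CLMN (r = 0.896) and PAPOLA (r = 0.896). The ZEB1 probe set that passed was not used here.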

How the data were processed

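Total RNA of IMR32 cells was hybridised to 11 one-colour Affymetrix arrays. The values are linear intensities as the authors deposited them, for 54675 probe sets, and MAS5 and GCOS are named in the submitters' processing notes, versions not given in the sources used here. Intensities of the middle 96% of probe sets averaged about 100 on every array, so a change in total RNA cannot be seen. No detection calls were used. No coordinate is printed beyond those of the RefSeq promoters, since the array's genome build is not given in the sources used here.

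Gene names came from the platform annotation and were updated through Entrez numbers with RefSeq (GRCh38.p14): 41097 had 1 symbol, 1801 several and 11777 none. Probe sets with 1 symbol were tested, except those among the 62 control probe sets, which left 41091. Means of 7 groups were fitted to log2(signal + 16) with limma 3.58.1 in R 4.3.3 (eBayes with trend; 4 residual and 4.09 prior degrees of freedom), with no filter on dim probe sets. p-values were adjusted by Benjamini-Hochberg over all tested, two-sided, at a threshold of 0.05, in 8 comparisons. Only the 4 groups of 2 arrays inform the spread, and the lone control virus arrays are taken to vary as they do. The procedure was tested on simulated data. There all arrays, the lone control virus ones included, shared the spread of their probe set. Folds were added to brighter probe sets only and were the same at all hours. The simulation therefore does not test the spread of the controls, the comparisons between hours or dim probe sets. The number of arrays limits the precision.

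Full values are given for the brightest probe set of each gene and each called one, and up to 4 genes per list by smallest p in the mean comparison, plus the 3 genes closest in pattern to each called gene by Pearson r among probe sets above the 40th percentile. The genes and lists were chosen with earlier results of these data known. The alternatives changed the offset (1 or 64) or the scaling (quantile, median), or left out the dimmest 40% or 60%. Others used the brightest probe set of each gene with the dimmest 40% left out, dropped the variance trend or took the letter as a replicate block. Each array was also left out in turn. Leaving out a control virus array took its hour out of the mean over the 3 hours and dropped the comparisons at that hour.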

Additional observations from a re-analysis of the deposited data

Results flagged for a closer look

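The shMYCN-labelled minus control virus difference was itself larger at 72 than at 24 hours for 2 of the 26 probe sets. Over all probe sets, 1.64% were called in this comparison (0.969% lower). For SNAI2 (213139_at) the 72 hour log2 difference minus the 24 hour one was -1.32 ± 0.15 (limma adjusted p = 0.0115), from signals of 175 and 181 labelled shMYCN against 669 with control virus at 72 hours, and 371 and 346 labelled shMYCN against 515 with control virus at 24 hours. For YAP1 (224894_at) it was -1.36 ± 0.20 (adjusted p = 0.0246), from 29.5 and 36.5 labelled shMYCN against 133 with control virus at 72 hours, and 98.5 and 95.9 labelled shMYCN against 118 with control virus at 24 hours. Both comparisons rest on 1 control virus array at each hour, so the spread of the controls was not measured. Each call was lost without any 1 array labelled shMYCN at 24 or 72 hours.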

How the results depend on the processing

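SNAI2 and the brightest YAP1 probe set stayed lower and past the threshold in the mean over the 3 hours and at 72 hours in all alternatives run. Of the alternative values for counts of the 26 probe sets, 133 stayed close to the value reported and 22 moved by over 1.5 times, mostly on leaving out an array. For the fits that left out an array, the share of all probe sets called is not given here, and the cause of the moves was not tested. At 48 hours the count was 5 with the dimmest 40% left out, 5 with the dimmest 60% left out and 5 with the letter as a replicate block, against 3. The difference of differences had a count of 1 without trend, against 2. Leaving out single arrays gave counts of 2 to 9 for the mean over the 3 hours (2 without the 72 hour control virus array), 2 to 6 at 48 hours, 3 to 8 at 72 hours, 3 to 6 for 72 against 24 hours, 0 to 2 for the difference of differences and 1 to 5 against no virus. It gave 0 at 24 hours and 0 for control virus against no virus. The sign turned for values that had not passed: WWTR1 202132_at ran from -0.21 (without the 24 hour control virus array) to 0.18 (without the 72 hour one), and TEAD1 224955_at from -0.058 (without the 24 hour control virus array) to 0.065 (without the 48 hour one), and it was -0.053 under median scaling. Median scaling changed the split of all calls in the mean to 3385 lower and 2341 higher, against 2833 lower and 3218 higher. Deviations of same-lettered arrays correlated across probe sets at -0.025, 0.041 and 0.097 between hours, so no shift common to a letter was seen. These values cannot tell whether same-lettered arrays came from 1 culture. Signals below the dim limit, as for WWTR1 and PRRX1, limit what can be detected.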
